A study of Mus musculus with 27 samples.

Results

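The matrix metalloproteinases (Mmp), the Adamts proteases (disintegrin-like metalloproteinases with thrombospondin motifs) and their tissue inhibitors (Timp) were followed in livers of mice given the dioxin TCDD, which activates the aryl hydrocarbon receptor (AhR) and is cleared slowly from the body. Members were all genes of the count files with a symbol of the form Mmp, Adamts or Timp plus a number in the GRCm38 annotation. There were 46 of 41388 gene identifiers: 23 Mmp, 19 Adamts and 4 Timp genes. All animals were female C57BL/6 mice whose ovaries had been removed, and their age is given as 120 days. There were 27 livers in 9 groups of 3, called biological replicates in the design text. The controls received the sesame oil vehicle alone, and the other groups received TCDD, at 0.01, 0.03 and 0.1 µg/kg in the low range, then 0.3 and 1 µg/kg, and at 3, 10 and 30 µg/kg in the high range. Dosing was by gavage at 4-day intervals over 92 days, although the treatment label also contains the word daily. Whole liver was sequenced, so that the values average over its cell types, and in such samples fewer cells of a type and less RNA per cell cannot be told apart.

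Matrix metalloproteinases are zinc-dependent enzymes, secreted or held at the cell surface as inactive precursors, that cut collagens, gelatins, elastin, laminin and proteoglycans. The Adamts enzymes cut proteoglycans, trim the ends of fibrillar procollagens or cut von Willebrand factor, while the Timp proteins bind the active site of the metalloproteinases and block it. In injured liver, collagen deposition depends on the balance of synthesis and degradation, and stellate cells, macrophages, neutrophils and bile duct cells are known sources of these enzymes and inhibitors.

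Library totals ranged from 11050391 to 30873586 counts in 26 livers, while the second 0.3 µg/kg liver had 434011. Levels are given as CPM, counts scaled to a common library size, after TMM scaling, one value per liver, and genes are compared with each other only as CPM per kb of exon. Fold changes, their standard errors (SE) and p-values come from edgeR's quasi-likelihood fit to all 27 livers, with Benjamini-Hochberg adjustment over 15121 genes that passed the low-count filter, and a gene is named called at an adjusted p below 0.05. The 6 AhR target genes listed as a check of dosing were all called higher at 30 µg/kg, among them Cyp1a1 at 3.12 ± 0.605 CPM in vehicle and 7200 ± 652 CPM at 30 µg/kg (SD, n = 3). All 6 hepatocyte markers had counts in each group, with a summed level of 115000 to 224000 CPM in vehicle and 55800 to 94400 CPM at 30 µg/kg. Each dose was compared with the same 3 vehicle livers, so that the comparisons share their controls. Index sequences in the deposits form a first set, in the vehicle, 0.01, 0.03, 0.1 and 30 µg/kg livers, and a second set in the 0.3, 1, 3 and 10 µg/kg livers. Between vehicle and 0.3 to 10 µg/kg the dose and the index set cannot be told apart. The 30 µg/kg and vehicle livers carry indices of the same set, which does not show that they shared a pool or a run.

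Of the 46 genes, 33 passed the filter: 15 Mmp, 15 Adamts and 3 Timp genes. No member was called up to 0.3 µg/kg, by edgeR or by DESeq2. Over all genes tested, edgeR called 0% at 0.01, 0.0397% at 0.03 (0.0331% higher and 0.00661% lower), 0.192% at 0.1 (0.145% and 0.0463%) and 1.18% at 0.3 µg/kg (0.622% and 0.562%). At an unadjusted p below 0.05 the members numbered 0, 2, 2 and 3 at these doses. At 1 µg/kg 12 members were called, 9 higher and 3 lower, beside 19.4% of all genes (11.1% higher and 8.21% lower). With only the 6 vehicle and 1 µg/kg livers fitted, 3 were called, beside 11.3% of all genes. Without the second vehicle or without the first 1 µg/kg liver 7 were called, beside 13.3% and 11.2% of all genes. At 3 µg/kg 5 were called, 3 higher and 2 lower, beside 10.1% (5.17% higher and 4.89% lower). At 10 µg/kg 14 were called, 12 higher and 2 lower, beside 22.5% (11.3% higher and 11.2% lower). Without the third vehicle or the third 10 µg/kg liver 8 were called, beside 14% and 14.8% of all genes. Without the first vehicle liver 9 were called, beside 17.9%. At 30 µg/kg 21 of the 33 were called, 63.6% of them, beside 37.4% of all genes. Of these, 19 were higher and 2 lower, where all genes tested gave 18% higher (2720 genes) and 19.4% lower (2940 genes). RLE scaling gave 3345 higher of 5644 called over all genes, and no member called by TMM scaling changed direction under it. Timp2 was called although its 3 livers at 30 µg/kg overlapped the vehicle range. The median log2 fold change at 30 µg/kg was 0.95 over the 33 members and -0.01 over all genes tested. By family it was 3.11 for Mmp, 0.64 for Adamts and 1.46 for Timp genes, the same with Mmp7, which had no vehicle counts, set to its lower bound.

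**Figure D1:**
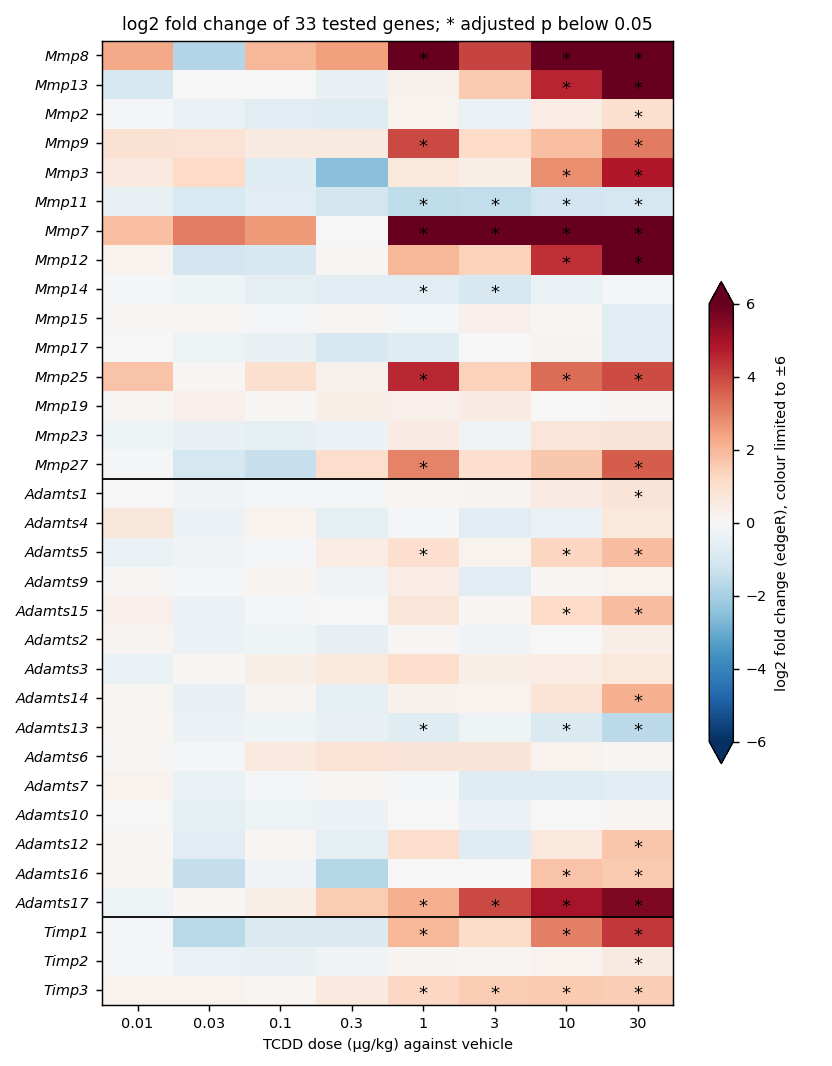
Log2 fold change against vehicle (colour, limited to ±6, edgeR) of the 33 tested genes (rows, Mmp above Adamts above Timp) at the 8 TCDD doses (columns, µg/kg), with an asterisk where the adjusted p is below 0.05. No asterisk stands at 0.01 to 0.3 µg/kg, 12 stand at 1, 5 at 3, 14 at 10 and 21 at 30 µg/kg, and the fitted value of Mmp7 rests on vehicle livers without counts.

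The 6 tested Mmp genes of chromosome 9 rose at 30 µg/kg but did not move together at 1 or 3 µg/kg. Mouse chromosome 9 holds 10 Mmp genes side by side, in the order Mmp13, Mmp12, Mmp1b, Mmp3, Mmp1a, Mmp10, Mmp8, Mmp27, Mmp20 and Mmp7, and 6 of them passed the filter. All 6 (Mmp3, Mmp7, Mmp8, Mmp12, Mmp13 and Mmp27) were called higher at 30 µg/kg, with a median log2 fold change of 6.14. Of the 9 tested Mmp genes elsewhere in the genome, 4 were called, 3 higher and 1 lower, with a median of 0.05. The 6 cluster genes had at most 15 counts in any vehicle liver. Mmp3 passed the filter only through the 30 µg/kg livers (28, 16 and 21 counts, at most 7 in any other liver). The filter keeps such genes largely where dosed livers are high, so that the count of 6 and the medians were partly set by it. At 10 µg/kg 5 of the 6 cluster genes were called higher, with a median of 4.45, and 2 of the 9 others were called. At 1 µg/kg 3 of the 6 were called higher (Mmp7, Mmp8 and Mmp27), and at 3 µg/kg only 1, Mmp7. In the first 1 µg/kg liver Mmp8 was at 17.3 CPM, while Mmp13 (0.119 CPM) and Mmp12 (0.476 CPM) lay within the vehicle range. The cluster genes made up 0.269% to 0.862% of the summed Mmp level (CPM per kb) in the vehicle livers, 11.4% to 21.8% at 10 µg/kg and 22.9% to 56.3% at 30 µg/kg.

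**Figure D2:**
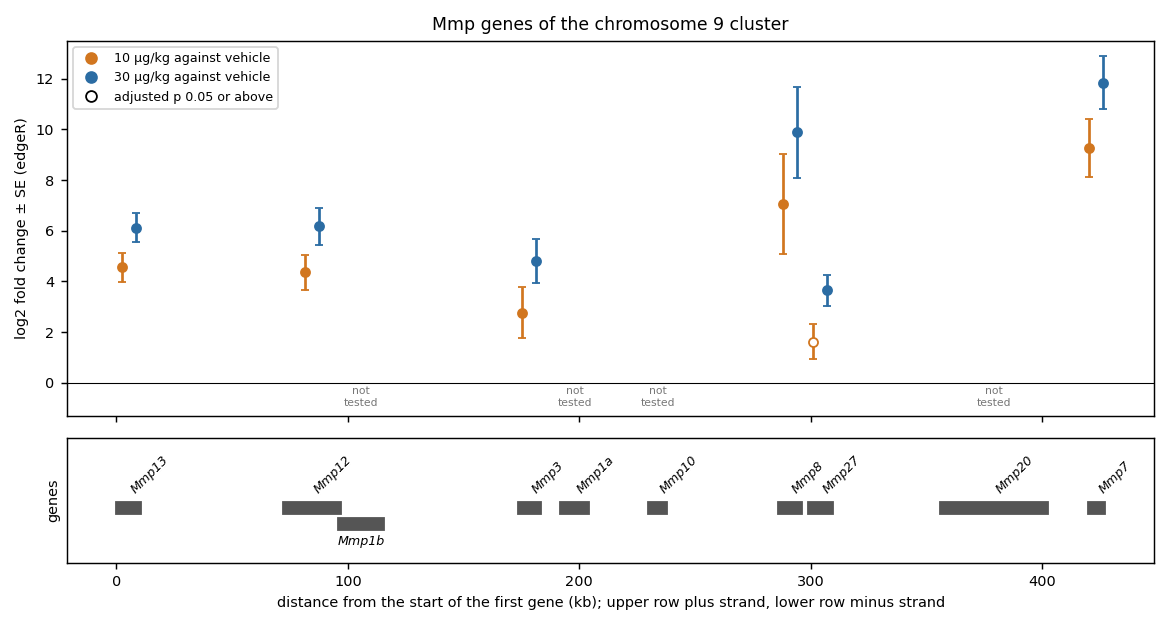
Log2 fold change ± SE against vehicle (edgeR) of the chromosome 9 Mmp genes at 10 µg/kg (orange) and 30 µg/kg (blue), placed by distance in kb from the start of Mmp13, with the gene bodies drawn below by strand. All 6 tested genes are above 0 at both doses, Mmp27 at 10 µg/kg has an adjusted p above the threshold (open circle), and 4 genes were not tested.

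The promoters of these genes are shown because all 6 tested cluster genes were called higher at 30 µg/kg. That count was partly set by the filter. Promoter sequences were taken from RefSeq (GRCm38.p6) and found for 32 of the 46 members, among them all 10 cluster genes. Each line gives the 150 bases upstream of the RefSeq start, 5′ to 3′, which for Mmp12 and Mmp8 is not the gene start of the GENCODE annotation used for the gene coordinates, with capitals marking an AP-1 motif (TGANTCA, bound by Fos and Jun dimers) and a TATA box (TATAAA). The lines are Mmp13 at chr9:7272364-7272513, Mmp12 at chr9:7344247-7344396, Mmp3 at chr9:7445672-7445821, Mmp8 at chr9:7558279-7558428, Mmp7 at chr9:7691940-7692089 and, for an inhibitor outside the cluster, Timp1 at chrX:20870016-20870165, all on the plus strand.
Mmp13: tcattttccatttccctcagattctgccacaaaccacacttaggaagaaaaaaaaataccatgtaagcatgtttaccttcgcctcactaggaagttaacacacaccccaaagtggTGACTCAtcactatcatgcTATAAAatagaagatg
Mmp12: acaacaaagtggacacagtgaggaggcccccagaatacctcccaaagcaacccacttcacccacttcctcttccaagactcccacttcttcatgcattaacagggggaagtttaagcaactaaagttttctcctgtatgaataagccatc
Mmp3: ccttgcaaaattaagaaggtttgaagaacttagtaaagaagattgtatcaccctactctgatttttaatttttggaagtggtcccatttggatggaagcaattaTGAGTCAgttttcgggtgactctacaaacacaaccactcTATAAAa
Mmp8: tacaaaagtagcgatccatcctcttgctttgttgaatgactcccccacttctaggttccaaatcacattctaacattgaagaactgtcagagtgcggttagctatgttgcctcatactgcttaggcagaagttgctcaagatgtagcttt
Mmp7: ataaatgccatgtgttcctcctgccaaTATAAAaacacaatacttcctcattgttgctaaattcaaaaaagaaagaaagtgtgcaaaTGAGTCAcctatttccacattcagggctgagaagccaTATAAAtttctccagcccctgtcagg
Timp1: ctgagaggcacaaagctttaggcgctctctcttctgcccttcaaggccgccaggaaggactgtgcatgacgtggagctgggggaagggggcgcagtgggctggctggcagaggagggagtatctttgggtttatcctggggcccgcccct

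The AP-1 motif begins at -35 from the start site in Mmp13, at -46 in Mmp3 and at -63 in Mmp7, and the nearest TATA box at -16, -7 and -26. Over 300-base windows that begin 250 bases before the start, searched on both strands, the AP-1 motif was present in 7 of the 10 cluster promoters (Mmp1a, Mmp1b, Mmp3, Mmp7, Mmp10, Mmp13 and Mmp20), in 0 of the 22 other member promoters and in 7.81% of the 32851 promoters of the table. The TATA box was present in 8 of 10, 2 of 22 and 13.6%, and the PEA3 motif of Ets factors (AGGAAG) in 7 of 10, 8 of 22 and 35.4%. The AhR core motif (GCGTG) was present in 0 of 10, 11 of 22 and 32.4%, with Timp1, Timp2, Timp3, Adamts14 and Mmp25 among the 11. The shares of the table count every promoter entry, whereas each member was given only the entry nearest its gene start. The 10 cluster genes are neighbours of 1 family, so that their promoters are not independent of each other. In Mmp8 the TATA box begins at -3 and runs past the start, so that it is not in capitals in its line. Mmp8, Mmp12 and Mmp27 were called higher at 30 µg/kg with no AP-1 match in the window, and Mmp1a, Mmp1b and Mmp20, which hold a match, had at most 1 count in any liver.

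Among the collagenases, which make the first cut in fibrillar collagen, Mmp13 and Mmp8 rose. Mmp13 (ENSMUSG00000050578, chromosome 9, 7272514 to 7283331) encodes the principal interstitial collagenase of rodents. It measured 0.41, 0.261 and 0.0401 CPM in the vehicle livers and 0 to 0.319 CPM in the 12 livers at 0.01 to 0.3 µg/kg. At 1 µg/kg it was at 0.119, 0.429 and 0.272 CPM and at 3 µg/kg at 0.489, 0.617 and 0.925 CPM, above all vehicle livers but not called. At 10 µg/kg it reached 3.71, 3.66 and 9.87 CPM and at 30 µg/kg 28.4, 8.68 and 13.7 CPM. These groups stood apart from vehicle, and the log2 fold change was 4.55 (SE 0.56, adjusted p = 1.68e-06) at 10 and 6.11 (SE 0.57, adjusted p = 1.14e-08) at 30 µg/kg.

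Mmp8 (ENSMUSG00000005800, chromosome 9, 7558456 to 7568485), the collagenase of neutrophil granules, had 1 count in all vehicle livers, at 0.0373, 0 and 0 CPM. At 1 µg/kg it measured 17.3, 0.0357 and 3.48 CPM, so that the second liver lay within the vehicle range while the first was close to the highest dose. The 3 µg/kg livers were back at 0.326, 0.705 and 0.116 CPM. At 10 µg/kg the values were 1.00, 1.11 and 6.03 CPM and at 30 µg/kg 24.7, 6.22 and 25.9 CPM. The ratio of pooled scaled counts to vehicle was 399 at 1 µg/kg (95% exact interval 71.2 to 15800), 186 at 10 µg/kg (32.9 to 7370) and 1280 at 30 µg/kg (229 to 50500). Such intervals cover counting error only. The gene was called at 1 (adjusted p = 0.00416), 10 (adjusted p = 0.0156) and 30 µg/kg (adjusted p = 0.00034). The call at 10 µg/kg was lost without any of the vehicle livers or without the third 10 µg/kg liver, with adjusted p-values up to 0.0837.

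Mmp12 (ENSMUSG00000049723, chromosome 9, 7344381 to 7369499), the elastase of macrophages, was at 0.56, 0.261 and 0.522 CPM in vehicle and at 0 to 0.924 CPM at 0.01 to 0.3 µg/kg. It measured 0.476, 0.965 and 4.19 CPM at 1 µg/kg and 0.652, 1.94 and 1.12 CPM at 3 µg/kg, without a call. At 10 µg/kg it was at 8.15, 5.33 and 15.1 CPM and at 30 µg/kg at 58.3, 12.2 and 30.3 CPM. Every liver of the upper doses exceeded every vehicle liver. The rise was 20.5-fold at 10 µg/kg (log2 4.36, SE 0.70, adjusted p = 9.91e-05) and 72.1-fold at 30 µg/kg (log2 6.17, SE 0.72, adjusted p = 9.71e-07).

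Mmp7 (ENSMUSG00000018623, chromosome 9, 7692090 to 7699585) encodes matrilysin, a small secreted protease made by epithelia that lacks the hemopexin domain of most relatives. It had no counts in the vehicle livers and 0 to 0.11 CPM at 0.01 to 0.3 µg/kg. It stood at 0.833, 0.464 and 2.01 CPM at 1 µg/kg, at 0.571, 0.882 and 0.539 CPM at 3 µg/kg, at 2.54, 3.9 and 4.81 CPM at 10 µg/kg and at 28.5, 6.45 and 32.2 CPM at 30 µg/kg. All 12 livers lay above the highest value at 0.01 to 0.3 µg/kg. Against 3 counts in each vehicle library the level was at least 8.51-fold higher at 1 µg/kg, 5.12-fold at 3, 28.9-fold at 10 and 173-fold at 30 µg/kg (adjusted p = 0.000882, 0.00647, 7.9e-06 and 4.69e-08). Mmp7 was thereby the chromosome 9 gene called from the lowest dose on, at 1 µg/kg and each dose above it. An annotated gene on the opposite strand covers 11.5% of its exonic bases, and since the strand setting of the counting is not given in the sources used here its counts are uncertain to that extent.

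Of the stromelysins, Mmp3, which cuts proteoglycans and laminin and activates other precursors, was called higher and Mmp11 was called lower. Mmp3 (ENSMUSG00000043613, chromosome 9, 7445822 to 7455975) was at 0, 0.105 and 0 CPM in vehicle, 2 counts in all, and at most at 0.136 CPM up to 3 µg/kg. It measured 0.100, 0.325 and 0.295 CPM at 10 µg/kg, overlapping vehicle, and 1.18, 0.615 and 1.12 CPM at 30 µg/kg, clear of it. The ratio of pooled scaled counts was 8.01 (95% exact interval 1.90 to 71.5) at 10 µg/kg and 33.5 (8.92 to 283) at 30 µg/kg, with adjusted p-values of 0.0489 and 0.000115. The call at 10 µg/kg ended when any of 4 livers, the first or the third vehicle or the second or the third 10 µg/kg liver, was left out (adjusted p up to 0.181), and also in DESeq2 (0.0963). Mmp10 did not pass the filter: it had 8 counts in all, in 4 livers, all at 10 or 30 µg/kg, with at most 4 in a liver.

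Mmp11 (ENSMUSG00000000901, chromosome 10, 75923222 to 75936496), a stromelysin activated inside the cell by furin, averaged 1.36 ± 0.300 CPM in vehicle (range 1.05 to 1.64). It averaged 0.467 ± 0.0979 CPM at 1 µg/kg (0.357 to 0.544), 0.457 ± 0.205 at 3 (0.326 to 0.693), 0.617 ± 0.285 at 10 (0.367 to 0.928) and 0.681 ± 0.331 at 30 µg/kg (0.346 to 1.01). All 12 livers were below the vehicle range. So were all livers at 0.03 µg/kg (0.587 to 0.816 CPM) and 0.1 µg/kg (0.647 to 0.994 CPM), without a call. The gene was at 0.684, 1.13 and 1.22 CPM at 0.01 µg/kg. At 0.3 µg/kg it was at 0.665, 2.87 and 0.527 CPM, where 2.87 is 1 count in the shallow library. The log2 fold change was -1.53 (SE 0.41, adjusted p = 0.01) at 1 and -1.47 (SE 0.42, adjusted p = 0.0254) at 3 µg/kg. It was -1.16 (SE 0.39, adjusted p = 0.0347) at 10 and -1.01 (SE 0.39, adjusted p = 0.0447) at 30 µg/kg. The calls at 3, 10 and 30 µg/kg were lost in DESeq2 (adjusted p = 0.077, 0.123 and 0.162), those at 10 and 30 µg/kg also with RLE scaling (0.055 and 0.0788), and the call at 1 µg/kg without the first 1 µg/kg liver (0.0536). Those at 3, 10 and 30 µg/kg also ended without the first or the third vehicle liver, the first or second liver at 3 or 10 µg/kg, or the second or the third at 30 µg/kg (up to 0.197).

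Mmp27 (ENSMUSG00000070323, chromosome 9, 7571396 to 7581885), a little-studied neighbour of Mmp8, was at 0.149, 0.157 and 0.0803 CPM in vehicle and 0 to 0.33 CPM at 0.01 to 0.3 µg/kg. It measured 1.78, 0.393 and 1.09 CPM at 1 µg/kg, 0.245, 0.0882 and 0.385 CPM at 3, 0.267, 0.325 and 0.633 CPM at 10 and 2.35, 0.653 and 2.02 CPM at 30 µg/kg. It was thus higher in the 1 µg/kg livers than in most 3 or 10 µg/kg livers. It was called at 1 µg/kg (log2 2.99, SE 0.63, adjusted p = 0.00156) and at 30 µg/kg (log2 3.65, SE 0.61, adjusted p = 4.52e-05) but not between them (adjusted p = 0.449 at 3 and 0.0881 at 10 µg/kg).

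**Figure D3:**
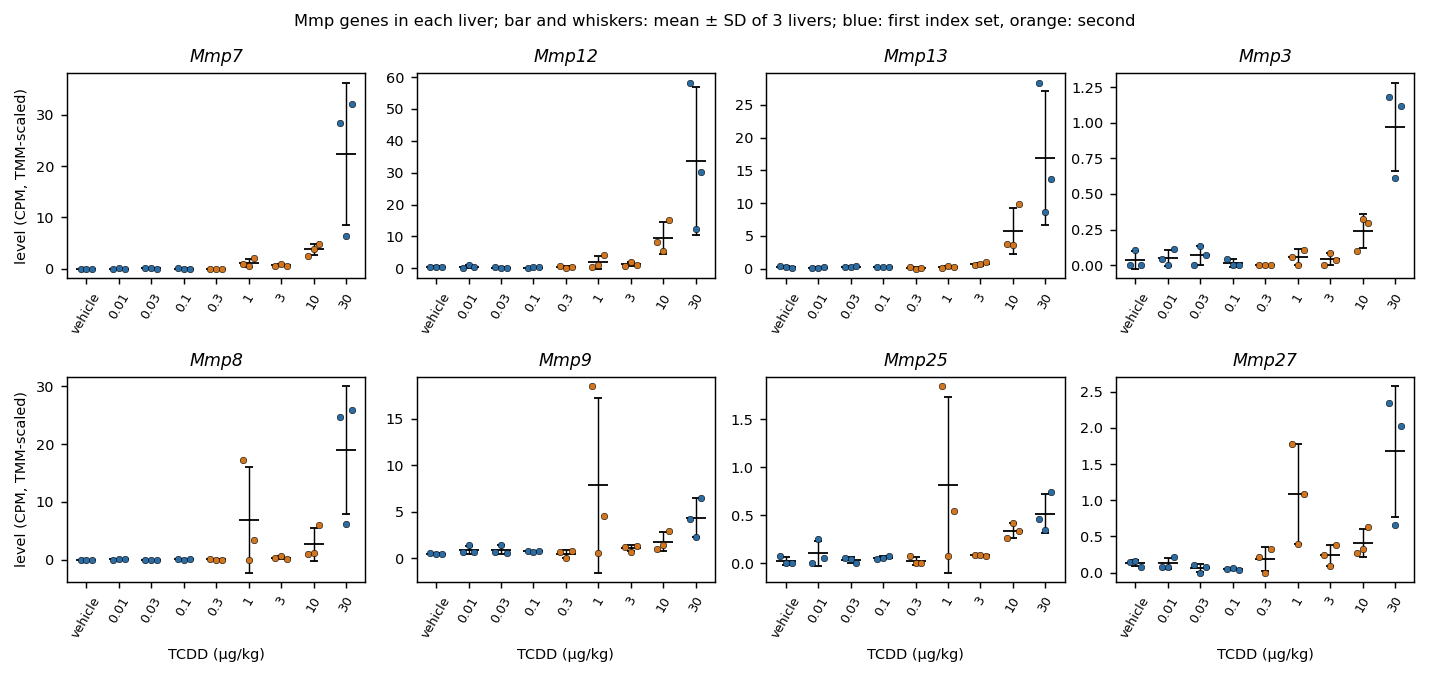
Level (CPM, linear axis) of 8 Mmp genes in each liver by TCDD dose (µg/kg), with the mean ± SD of 3 livers and colour by index set. Mmp7, Mmp12, Mmp13 and Mmp3 are highest at 30 µg/kg, while the first 1 µg/kg liver holds the highest value of Mmp9 (18.5 CPM) and Mmp25 (1.84 CPM).

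Both gelatinases, which digest denatured collagen and basement membrane, were called at 30 µg/kg. Mmp9 (ENSMUSG00000017737, chromosome 2, 164940780 to 164955850), a product of neutrophils and macrophages, was at 0.522, 0.471 and 0.482 CPM in vehicle. It measured 18.5, 0.536 and 4.57 CPM at 1 µg/kg, 1.22, 0.705 and 1.27 CPM at 3, 1.00, 1.39 and 2.91 CPM at 10 and 4.2, 2.3 and 6.49 CPM at 30 µg/kg. The 1 µg/kg livers thus spanned the whole range of the gene, from just above vehicle to its highest value. The log2 fold change was 3.96 (SE 0.79, adjusted p = 0.00133) at 1 µg/kg and 3.11 (SE 0.79, adjusted p = 0.00355) at 30 µg/kg. The first of these was not called when only those 6 vehicle and 1 µg/kg livers were fitted (adjusted p = 0.0835). Mmp2, the gelatinase of fibroblastic cells that Mmp14 and Timp2 activate together, averaged 2.88 ± 0.419 CPM in vehicle (2.57 to 3.36) and 5.59 ± 1.94 CPM at 30 µg/kg (3.38 to 6.97), a 1.93-fold rise (log2 0.95, SE 0.34, adjusted p = 0.0293). It lost its call when any of 4 livers was left out: the second or the third vehicle or the first or the third 30 µg/kg liver (adjusted p up to 0.123).

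The membrane-bound enzymes differed among themselves. Mmp25 (ENSMUSG00000023903, chromosome 17, 23628311 to 23645277), a lipid-anchored enzyme of leukocytes, had 2 counts in all vehicle livers, at 0.0746, 0 and 0 CPM. It was at 1.84, 0.0715 and 0.544 CPM at 1 µg/kg, 0.0815, 0.0882 and 0.077 CPM at 3, 0.267, 0.417 and 0.337 CPM at 10 and 0.462, 0.346 and 0.744 CPM at 30 µg/kg. The first 1 µg/kg liver was the highest of all livers and the second lay within the vehicle range, as for Mmp8. The ratio of pooled scaled counts was 24.1 (95% exact interval 6.28 to 205) at 1, 11.8 (2.94 to 103) at 10 and 17.5 (4.5 to 151) at 30 µg/kg (adjusted p = 0.00254, 0.0294 and 0.00468). The call at 1 µg/kg was lost without the first 1 µg/kg liver (adjusted p = 0.0595), and that at 10 µg/kg without the second or the third liver of either group (up to 0.119).

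Mmp14, the main activator of the Mmp2 precursor, averaged 62.5 ± 16.0 CPM in vehicle (46.3 to 78.2). It was lower by 0.65 on the log2 scale at 1 µg/kg (SE 0.21, adjusted p = 0.0316), at 39.8 ± 11.3 CPM. At 3 µg/kg it was lower by 0.97 (SE 0.22, adjusted p = 0.00319), at 31.8 ± 2.75 CPM. The uncalled doses below were not all at the vehicle level. Per kb the mean was 10.5 CPM in vehicle and 9.99, 8.82, 7.14 and 6.76 CPM at 0.01, 0.03, 0.1 and 0.3 µg/kg. It was 6.68 CPM per kb at 1 µg/kg and 7.94 CPM per kb at 10 µg/kg, the latter without a call. At 30 µg/kg it was at 59.0 ± 5.62 CPM, with an adjusted p of 0.789. The call at 1 µg/kg was lost with RLE scaling (0.0565), in DESeq2 (0.0563) and without any of 4 livers, the second or the third vehicle or the first or second 1 µg/kg liver (up to 0.183). Mmp15 averaged 29.3 ± 2.68 CPM in vehicle and 19.2 ± 9.68 CPM at 30 µg/kg (adjusted p = 0.124), and the lipid-anchored Mmp17 averaged 0.718 ± 0.322 and 0.465 ± 0.0703 CPM (adjusted p = 0.317). Mmp24 and Mmp16 did not pass the filter. Mmp24 had no vehicle counts and reached 0.336, 0.115 and 0.266 CPM at 30 µg/kg, with at most 8 counts in a liver.

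Of the remaining Mmp genes, Mmp19, a basement membrane protease, had the highest level per kb of the family in vehicle livers. It averaged 98.1 ± 24.5 CPM in vehicle and 101 ± 8.37 CPM at 30 µg/kg (log2 0.05, SE 0.17, adjusted p = 0.864). Genes on the opposite strand cover 22.3% of its exonic bases, so that its counts share the strand limit given for Mmp7. Mmp23 averaged 1.27 ± 0.208 CPM in vehicle (1.04 to 1.45) and 2.14 ± 0.264 CPM at 30 µg/kg (1.92 to 2.43). Its groups did not overlap and it was not called at 30 µg/kg (adjusted p = 0.0661), but it was in the trend over dose rank, from 0 for vehicle to 8 for 30 µg/kg (log2 slope 0.13 per step, SE 0.03, adjusted p = 0.00318).

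The levels of Mmp8, Mmp9 and Mmp25 varied between livers with the neutrophil markers. The summed level of 9 neutrophil markers was 1.2 to 2.76 CPM in vehicle, with Ly6g at 0 there. It was 1110, 5.25 and 186 CPM in the first, second and the third 1 µg/kg liver, in the same order as Mmp8, Mmp9 and Mmp25. All 8 of the markers tested were called higher at 1 and at 30 µg/kg, and 3 of the 8 at 10 µg/kg. The sum was 5.47 to 12.8 CPM at 3, 13.3 to 47.8 CPM at 10 and 52.2 to 123 CPM at 30 µg/kg. Mmp8 equalled 1.55%, 0.68% and 1.87% of the marker sum at 1 µg/kg but 46.3%, 11.9% and 21.1% at 30 µg/kg. Mmp9 equalled 1.66%, 10.2% and 2.46% at 1 µg/kg and 7.87%, 4.42% and 5.29% at 30 µg/kg. The highest dose thus had a far lower neutrophil marker sum than the first 1 µg/kg liver at a comparable Mmp8 level. The part of neutrophils in these levels was not tested. With the second 1 µg/kg liver as the sole one of its group, 2 of the 12 members stayed called at that dose, Mmp14 and Timp3, where the lone liver is assumed to vary like the other groups and all genes gave 497 calls.

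Mmp12 and the summed markers of recruited macrophages and monocytes were both above vehicle at 10 and 30 µg/kg. The sum of these 8 markers was 14.3 to 23.7 CPM in vehicle, 115, 23.4 and 83.2 CPM at 1 µg/kg, 54.4 to 113 CPM at 10 and 106 to 328 CPM at 30 µg/kg, and none was at 0 in any of these groups. Of the 8, 7 were called higher at 1 µg/kg, 5 at 10 and 6 at 30 µg/kg, and Ly6c2 and Cd68 were not called at 10 or 30 µg/kg. The sum at 30 µg/kg was made up largely of Gpnmb, at 251, 61.3 and 153 CPM of sums of 328, 106 and 210 CPM. Gpnmb was at 0.0523 to 0.281 CPM in vehicle and at 2.08 CPM in the first 1 µg/kg liver. Mmp12 equalled 1.82% to 2.87% of the sum in vehicle, 0.415%, 4.13% and 5.04% at 1 µg/kg, 9.45% to 15% at 10 and 11.5% to 17.7% at 30 µg/kg. The first 1 µg/kg liver, which had the highest macrophage and neutrophil sums of its group, had the lowest Mmp12 level of that group. All 6 Kupffer cell markers were called higher at 1 µg/kg, but none was at 10 or 30 µg/kg, and Clec4f was called lower at 30 µg/kg. Their sum was 223 to 334 CPM in vehicle and 1400, 345 and 791 CPM at 1 µg/kg. It was 298 to 419 CPM at 10 and 173 to 307 CPM at 30 µg/kg.

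Bile duct markers were called higher together with Mmp7 at 30 µg/kg and not at lower doses. The sum of 5 cholangiocyte markers was 6.9 to 11.6 CPM in vehicle, 3.18 to 7.94 CPM at 1, 3.43 to 5.47 CPM at 3 and 6.08 to 11.8 CPM at 10 µg/kg. No cholangiocyte marker was called higher at 1 or 10 µg/kg by edgeR, while Mmp7 was called at both. The sum was made up largely of Sox9, at 5.28 to 9.43 CPM in vehicle, which was called lower at 1, 3 and 10 µg/kg. The log2 fold changes of the other 4 at 10 µg/kg were 1.80 for Cftr, 1.34 for Epcam, 0.58 for Krt7 and 0.39 for Krt19, with adjusted p-values of 0.131, 0.0982, 0.462 and 0.601. Within the groups at 1, 3 and 30 µg/kg, but not at 10 µg/kg, the 3 livers stood in the same order by Mmp7 as by the sum. At 30 µg/kg 4 of the 5 (Krt7, Krt19, Epcam and Cftr) were called higher, and the sum was 45.5, 12.5 and 48.4 CPM, lowest in the second liver, as was Mmp7. Mmp7 equalled 14.6%, 14.6% and 25.3% of the sum at 1 µg/kg and 62.5%, 51.5% and 66.5% at 30 µg/kg. The part of bile duct cells in the Mmp7 level was not tested.

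**Figure D4:**
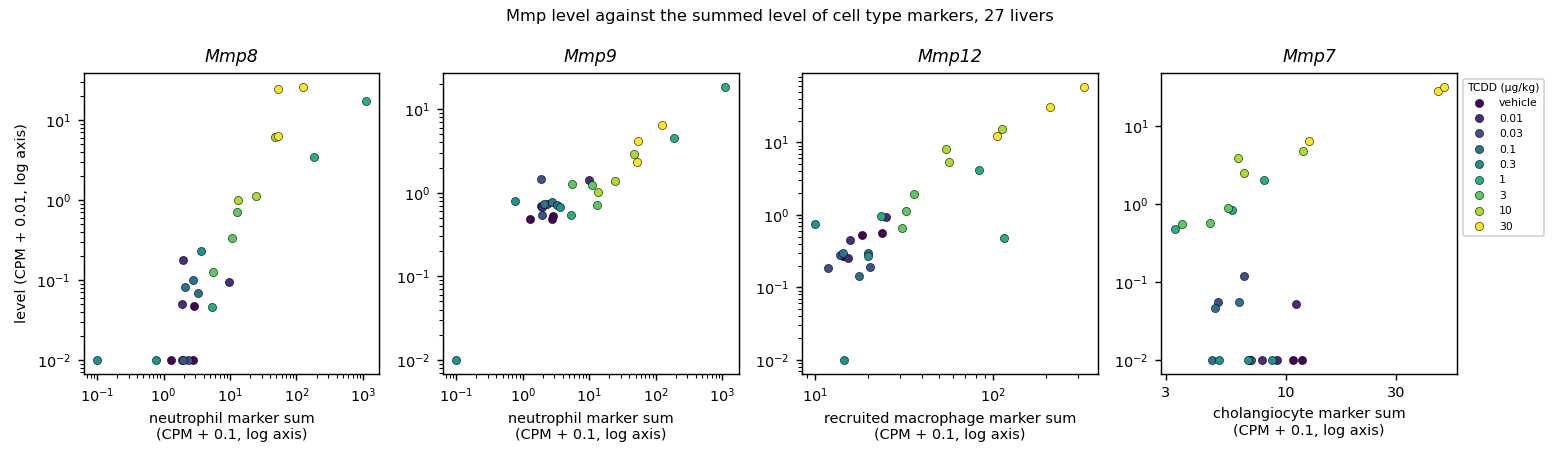
Level of Mmp8, Mmp9, Mmp12 and Mmp7 (CPM + 0.01, log axis) against the summed level of the neutrophil, recruited macrophage or cholangiocyte markers (CPM + 0.1, log axis), with 1 point per liver in 27 livers, coloured by dose. Mmp7 at 1, 3 and 10 µg/kg lies above the vehicle livers at marker sums no higher than 11.8 CPM, and the highest neutrophil sum (1110 CPM) belongs to a 1 µg/kg liver.

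Of the 15 Adamts genes tested, 7 rose and 1 fell at 30 µg/kg. Adamts17 (ENSMUSG00000058145, chromosome 7, 66839735 to 67153171), a fibrillin-associated protease whose loss causes short stature and eye disease, had the largest change of the family. It was at 0.0746, 0.105 and 0 CPM in vehicle and at 0 to 0.198 CPM at 0.01 to 0.3 µg/kg. It then measured 0.178, 0.286 and 0.326 CPM at 1 µg/kg, 0.978, 0.794 and 1.12 CPM at 3, 1.64, 1.86 and 2.28 CPM at 10 and 3.36, 2.54 and 3.19 CPM at 30 µg/kg. The groups from 1 to 30 µg/kg did not overlap with vehicle or with each other. The log2 fold change was 2.12 (SE 0.75, adjusted p = 0.0484) at 1, 3.97 (SE 0.66, adjusted p = 0.000124) at 3, 4.94 (SE 0.61, adjusted p = 1.36e-06) at 10 and 5.59 (SE 0.61, adjusted p = 8.21e-08) at 30 µg/kg. The call at 1 µg/kg was lost when any of the 6 livers was left out (adjusted p up to 0.192) and in DESeq2 (0.0507). Unlike Mmp8 and Mmp9, Adamts17 was not higher in the first 1 µg/kg liver than in the other livers of that dose.

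Among the proteases that cut aggrecan and versican, Adamts5, Adamts15 and Adamts1 rose at 30 µg/kg. Adamts5 (ENSMUSG00000022894, chromosome 16, 85856173 to 85901828), the main aggrecanase of mouse cartilage, was at 2.01, 2.09 and 3.01 CPM in vehicle and 8.61, 7.07 and 9.89 CPM at 30 µg/kg, with no overlap (log2 1.84, SE 0.29, adjusted p = 1.95e-05). It was also called at 1 µg/kg, at 3.93, 3.43 and 7.18 CPM (log2 1.02, SE 0.29, adjusted p = 0.0145), and at 10 µg/kg, at 3.81, 6.73 and 6.71 CPM (log2 1.27, SE 0.29, adjusted p = 0.00224), but not at 3 µg/kg, at 3.51, 2.91 and 1.96 CPM. The call at 1 µg/kg was lost without the third 1 µg/kg liver, which was its highest (0.157), or without the first or second vehicle liver (0.0629 and 0.0585). Adamts15 (ENSMUSG00000033453, chromosome 9, 30899155 to 30922452) was at 1.42, 1.36 and 1.12 CPM in vehicle, 2.34, 2.27 and 4.05 CPM at 10 and 6.38, 3.19 and 4.57 CPM at 30 µg/kg. Its log2 fold change was 1.15 (SE 0.30, adjusted p = 0.00764) at 10, where the call needed the third liver (0.0714 without it), and 1.85 (SE 0.30, adjusted p = 3.19e-05) at 30 µg/kg. Adamts1 averaged 9.99 ± 1.56 CPM in vehicle (8.55 to 11.6) and 17.3 ± 3.46 CPM at 30 µg/kg (13.4 to 19.8), 1.73-fold higher (log2 0.79, SE 0.22, adjusted p = 0.00572). Adamts4 averaged 0.348 ± 0.272 CPM in vehicle and 0.567 ± 0.232 CPM at 30 µg/kg, and Adamts9 2.45 ± 0.205 and 2.81 ± 0.594 CPM, both uncalled.

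Of the procollagen-processing enzymes, which remove the amino-terminal propeptide, Adamts14 rose and Adamts2 and Adamts3 were not called. Adamts14 (ENSMUSG00000059901, chromosome 10, 61197112 to 61273438) was at 2.05, 1.36 and 2.69 CPM in vehicle, 4.38, 2.92 and 3.5 CPM at 10 and 9.7, 3.03 and 14.5 CPM at 30 µg/kg. The second 30 µg/kg liver lay just above vehicle and the other two far above it, which gave a log2 change of 2.14 (SE 0.37, adjusted p = 6.65e-05). Adamts2 averaged 5.15 ± 0.529 CPM in vehicle and 6.79 ± 1.73 CPM at 30 µg/kg (adjusted p = 0.217), and Adamts3 0.286 ± 0.0541 and 0.450 ± 0.257 CPM (adjusted p = 0.38).

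Adamts13, the protease that trims von Willebrand factor and is made in liver by stellate cells, fell. It averaged 9.04 ± 0.986 CPM in vehicle (7.95 to 9.87), 4.98 ± 1.26 CPM at 10 (3.54 to 5.91) and 2.98 ± 1.32 CPM at 30 µg/kg (1.91 to 4.46), below vehicle in all 6 livers. The log2 fold change was -0.86 (SE 0.26, adjusted p = 0.018) at 10 and -1.59 (SE 0.27, adjusted p = 4.74e-05) at 30 µg/kg. At 1 µg/kg, with 5.42 ± 1.76 CPM, it was called at an adjusted p of 0.0479 that missed the threshold with RLE scaling (0.0663), in DESeq2 (0.0635) and without 5 of the 6 livers (up to 0.252). The call at 10 µg/kg was lost without the first or the third vehicle or the third 10 µg/kg liver (up to 0.139). Vwf, its substrate, was among the matrix genes called higher at 10 and 30 µg/kg. Of 10 stellate and myofibroblast markers, 2 were called higher (Reln and Tagln) and 1 lower (Ngfr) at 30 µg/kg. Their sum was 302 to 355 CPM in vehicle and 428 to 693 CPM at 30 µg/kg. It was made up largely of Dcn and Reln. Reln was at 50.8 to 74.3 CPM in vehicle and 147 to 302 CPM at 30 µg/kg. Dcn was at 157 to 196 and 181 to 280 CPM, without a call.

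The remaining Adamts genes were low or near their vehicle level. Adamts16 averaged 0.125 ± 0.0226 CPM in vehicle (0.105 to 0.149), 0.430 ± 0.182 CPM at 10 (0.232 to 0.591) and 0.394 ± 0.100 CPM at 30 µg/kg (0.307 to 0.504), with adjusted p-values of 0.031 and 0.0345. Adamts12 averaged 0.201 ± 0.0969 CPM in vehicle (0.105 to 0.298) and 0.677 ± 0.353 CPM at 30 µg/kg (0.307 to 1.01), with an adjusted p of 0.0272. DESeq2 did not call Adamts16 at 10 or 30 µg/kg (0.105 and 0.097), and leaving out any liver but the second of the dosed group ended its call at 10 (up to 0.132) and at 30 µg/kg (up to 0.127). The call of Adamts12 ended without the second or the third vehicle or the first or the third 30 µg/kg liver (up to 0.134). Adamts7, which cuts cartilage oligomeric matrix protein, averaged 7.63 ± 3.13 CPM in vehicle (4.13 to 10.2) and 4.84 ± 1.67 CPM at 30 µg/kg (3.4 to 6.67). It was called lower only in the trend (log2 slope -0.10 per step, SE 0.03, adjusted p = 0.013), and not in either index set alone (adjusted p = 0.0999 in the first and 0.103 in the second). Adamts6 averaged 1.33 ± 0.188 CPM in vehicle and 1.4 ± 0.654 CPM at 30 µg/kg, and Adamts10 10.1 ± 0.948 and 10.9 ± 3.08 CPM.

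All 3 inhibitors tested were called higher at 30 µg/kg, Timp1 by the largest factor. Timp1 (ENSMUSG00000001131, chromosome X, 20870166 to 20874735), a secreted inhibitor long used as a marker of active liver fibrosis, was at 0.336, 0.0523 and 0.161 CPM in vehicle and at 0 to 0.332 CPM at 0.01 to 0.3 µg/kg. It measured 1.13, 0.25 and 1.09 CPM at 1 µg/kg and 0.245, 0.529 and 0.462 CPM at 3 µg/kg. At 10 µg/kg it was at 1.27, 0.974 and 2.57 CPM and at 30 µg/kg at 5.37, 1.73 and 4.15 CPM. The 1 and 3 µg/kg groups overlapped vehicle and the upper groups did not. The log2 fold change was 2.00 (SE 0.64, adjusted p = 0.0294) at 1, 3.02 (SE 0.61, adjusted p = 0.000682) at 10 and 4.23 (SE 0.60, adjusted p = 4.72e-06) at 30 µg/kg. The call at 1 µg/kg was lost without any of 4 livers, the second or the third vehicle or the first or the third 1 µg/kg liver (up to 0.132).

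Timp3 (ENSMUSG00000020044, chromosome 10, 86300372 to 86349506), an inhibitor bound to the matrix that also blocks several Adam and Adamts proteases, reached its upper level at a lower dose. It was at 18.2, 19.6 and 16.9 CPM in vehicle and at 17.9, 17.2 and 38.7 CPM at 0.3 µg/kg. It measured 26, 52.1 and 48.6 CPM at 1 µg/kg, 49.9, 54.8 and 49.3 CPM at 3, 53.3, 58.6 and 50.8 CPM at 10 and 52, 46.7 and 51.5 CPM at 30 µg/kg. From 3 µg/kg on, the livers of all doses overlapped each other and none overlapped vehicle. The log2 fold change was 1.22 (SE 0.24, adjusted p = 0.000777) at 1, 1.5 (SE 0.24, adjusted p = 8.11e-05) at 3, 1.58 (SE 0.24, adjusted p = 2.21e-05) at 10 and 1.46 (SE 0.24, adjusted p = 2.83e-05) at 30 µg/kg. Unlike Mmp8 and Timp1, it was lowest at 1 µg/kg in the first liver. Genes on the opposite strand cover 21.3% of its exonic bases, with the strand limit given above.

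Timp2 (ENSMUSG00000017466, chromosome 11, 118301069 to 118355740), the inhibitor that also helps Mmp14 to activate Mmp2, was at 19.6, 12.3 and 14.2 CPM in vehicle and 8.62 to 15.9 CPM at 0.01 to 0.3 µg/kg. It was at 15.2, 15.3 and 20.9 CPM at 1 µg/kg, 12.1, 18.5 and 20 CPM at 3, 20.5, 13.3 and 19 CPM at 10 and 26.6, 18.6 and 22 CPM at 30 µg/kg. The second 30 µg/kg liver lay within the vehicle range. The log2 fold change at 30 µg/kg was 0.54 (SE 0.20, adjusted p = 0.0376), and the call ended without the second or the third vehicle or the first or the third 30 µg/kg liver (up to 0.168). Timp4 had no count in any liver.

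Inhibitor was set against protease as the ratio of the summed Timp to the summed Mmp level, both in CPM per kb of exon. The Timp sum was 7.64, 5.63 and 5.89 in the vehicle livers, 13.2, 11.7 and 14 at 10 µg/kg and 19.3, 12.5 and 16.6 at 30 µg/kg. The Mmp sum was 36.4, 56 and 45.9 in vehicle, 48.1, 51.5 and 60.5 at 10 µg/kg and 102, 62 and 98.9 at 30 µg/kg. The inhibitors thus stood above vehicle at both doses and the proteases at 30 µg/kg alone. The ratio was 0.21, 0.101 and 0.128 in vehicle, 0.152, 0.189 and 0.233 at 1, 0.183, 0.217 and 0.215 at 3, 0.275, 0.227 and 0.232 at 10 and 0.189, 0.201 and 0.168 at 30 µg/kg. It was above every vehicle liver at 10 µg/kg and within the vehicle range at 30 µg/kg, where the mean log2 ratio differed from vehicle by 0.42 with no test. The sign of this difference turns to -0.27 when Mmp19, the largest item of the Mmp sum, is not counted, and with Timp1 as the sole inhibitor the difference is 3.67. Without Mmp19 the ratio was 0.488, 0.263 and 0.328 in vehicle, 0.654, 0.795 and 0.747 at 3, 0.586, 0.56 and 0.433 at 10 and 0.255, 0.397 and 0.239 at 30 µg/kg. The third 10 µg/kg liver then lay within the vehicle range, and all 3 livers at 3 µg/kg lay above it.

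**Figure D5:**
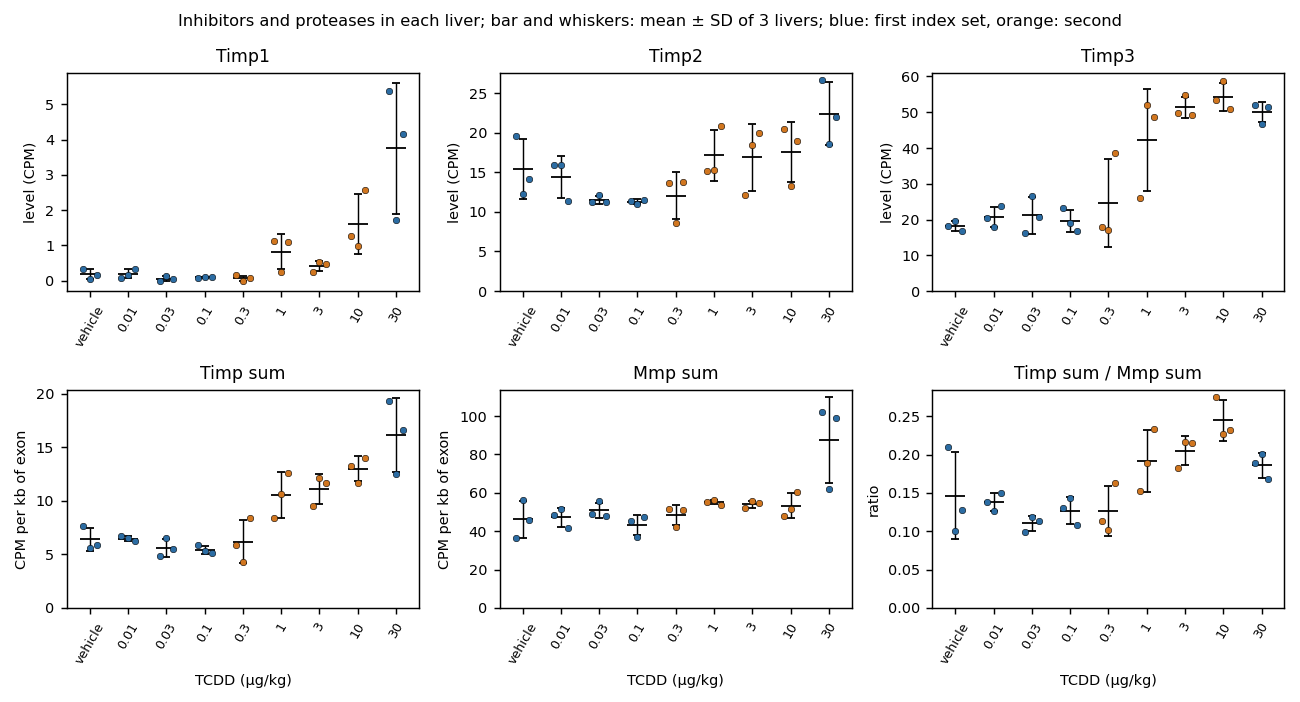
Levels of Timp1, Timp2 and Timp3 (CPM) and, below, the summed Timp and Mmp levels (CPM per kb of exon) and their ratio in each liver by TCDD dose (µg/kg), with the mean ± SD of 3 livers and colour by index set. Timp3 levels off near 50 CPM from 3 µg/kg, Timp1 is highest at 30 µg/kg, and the ratio is highest at 10 µg/kg (0.227 to 0.275).

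By level per kb, the vehicle liver was led by Mmp19 at 27.8 ± 6.92 CPM per kb, followed by Mmp14 at 10.5 ± 2.68, Mmp15 at 5.43 ± 0.497, Timp2 at 3.94 ± 0.967 and Timp3 at 2.23 ± 0.166 (SD, n = 3). At 30 µg/kg Mmp19 was at 28.7 ± 2.37 CPM per kb, Mmp7 at 21 ± 13, Mmp14 at 9.89 ± 0.943, Mmp8 at 7.81 ± 4.55, Mmp13 at 6.33 ± 3.84, Timp3 at 6.15 ± 0.357, Timp2 at 5.75 ± 1.03, Mmp12 at 4.64 ± 3.21 and Timp1 at 4.22 ± 2.09. Neighbours in this second order, from Mmp7 down to Timp1, differed by less than the larger of their SDs. Mmp7, Mmp8, Mmp12 and Mmp13 had been at or below 0.0888 CPM per kb in vehicle. The spread at 30 µg/kg came largely with the second liver, which was the lowest of the group for all 6 cluster genes, Mmp9, Timp1 and Adamts14.

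The lowest dose from which a gene was called at every higher dose divided the members. It was 1 µg/kg for Mmp7, Mmp11, Adamts17 and Timp3. It was 10 µg/kg for Mmp3, Mmp8, Mmp12, Mmp13, Mmp25, Adamts5, Adamts13, Adamts15, Adamts16 and Timp1, and 30 µg/kg for Mmp2, Mmp9, Mmp27, Adamts1, Adamts12, Adamts14 and Timp2. Over dose rank, 23 of the 33 were called, 20 higher and 3 lower, beside 46.6% of all genes (23.3% in each direction). Within the second index set, 10 against 0.3 µg/kg gave 9 members called, all higher, beside 13.3% of all genes (6.96% higher and 6.37% lower): Mmp7, Mmp12, Mmp13, Adamts14, Adamts15, Adamts16, Adamts17, Timp1 and Timp3. For Mmp13 the log2 fold change was 5.01 there (SE 0.75, adjusted p = 6.67e-05), for Mmp12 4.28 (SE 0.87, adjusted p = 0.00218), for Adamts17 3.44 (SE 0.66, adjusted p = 0.000905), for Timp1 3.88 (SE 0.87, adjusted p = 0.00362) and for Timp3 1.00 (SE 0.25, adjusted p = 0.00985). Without the first 0.3 µg/kg liver, which leaves the shallow library and the third, 5 remained called, beside 6.88% of all genes. Timp3 (0.131), Adamts14, Adamts15 and Adamts16 were lost. Timp1 lost its call without the third 0.3 µg/kg liver (0.0527), Adamts15 and Adamts16 without the third 10 µg/kg liver, and Adamts14 without any of the 6 livers. A trend within the second set alone called 5 members (Mmp7, Mmp12, Mmp13, Adamts14 and Adamts17), beside 6.79% of all genes. Within the first set alone it called 19 members, beside 44% of all genes.

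The genes around the family were taken from lists of the pathway. In the plasminogen system, whose protease plasmin activates several Mmp precursors, 6 of 14 tested genes rose and 3 fell at 30 µg/kg, with a median log2 fold change of 0.55. Over all genes tested 18% were called higher and 19.4% lower at this dose, with a median of -0.01, against which this and the following counts are to be read. The activator Plat went from 0.564 ± 0.077 to 4.55 ± 3.11 CPM and the receptor Plaur from 0.495 ± 0.136 to 3.63 ± 1.36 CPM, both called, while Cpb2 was not called (adjusted p = 0.0684). Among membrane and serum regulators 6 of 21 rose and 10 fell, with a median of -0.27. Thbs1 rose (log2 3.20, SE 0.46, adjusted p = 6.34e-06). Bmp1, which removes the other propeptide of procollagen, fell from 153 ± 9.21 to 35.5 ± 11.3 CPM and the serum protease inhibitor Mug1 from 1890 ± 508 to 536 ± 249 CPM. Reck, a membrane inhibitor of Mmp enzymes, was among the 10 that fell, and the precursor-activating protease Furin was not called (adjusted p = 0.381).

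Of 15 cathepsins and cystatins tested, 4 rose and 4 fell at 30 µg/kg, with a median log2 fold change of -0.11. The collagen-degrading cathepsin Ctsk rose (log2 2.47, SE 0.39, adjusted p = 2e-05), as did Ctss (1.46), and Ctsl fell (-1.32), while Ctsb was not called (adjusted p = 0.385). Of 12 Adam sheddases 6 rose and 1 fell, with a median of 0.64, among them Adamdec1 (3.11) and Adam8 (3.07) upward and Adam11 (-3.31) downward, and Adam9 was not called. Of 6 Adamts-like genes, which lack the protease domain, none rose and Papln fell (-1.91), and Adamtsl2 was not called. Of 32 matrix substrates 22 rose and 2 fell, with a median of 1.01, including Tnc (log2 4.42, SE 0.40, adjusted p = 6.07e-09) and Vcan (4.02, SE 0.91, adjusted p = 0.0012). Fbn2 went from 0.0124 ± 0.0215 to 0.656 ± 0.371 CPM (adjusted p = 0.000304), and Dcn was not called (adjusted p = 0.163). Of 27 upstream signals and transcription factors 12 rose and 3 fell, with a median of 0.74. Tgfb2 had the largest change (log2 5.96, SE 0.44, adjusted p = 1.35e-10), followed by Cxcl2 (2.76) and Runx1 (2.67). Fosl2, an AP-1 subunit, was among the 12 but was not called at 1, 3 or 10 µg/kg or in the trend. Jund was not called at 30 µg/kg (adjusted p = 0.82).

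The other marker lists gave, from vehicle to 30 µg/kg, summed levels of 178 to 230 and 149 to 249 CPM for endothelial, 1.52 to 8.32 and 4.11 to 9.66 CPM for mesothelial and 1.75 to 2.93 and 1.86 to 3.53 CPM for smooth muscle genes. B and plasma cell genes were at 3.4 to 5.63 and 16.4 to 19.4 CPM, T and NK cell genes at 2.01 to 3.81 and 4.04 to 5.25 CPM. Pancreas acinar genes were at 16.6 to 20.7 and 5.76 to 8.45 CPM, nearly all of it Cela1, which was called lower, while Ctrb1 was called higher, from 0 CPM in each vehicle liver to 1.13, 0.461 and 2.02 CPM at 30 µg/kg. Adipocyte genes were at 0 to 0.157 and 0 to 0.423 CPM. The part of these cells in the levels of the Mmp, Adamts and Timp genes was not tested.

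The 13 members that did not pass the filter had few reads. Mmp1a (annotated as a polymorphic pseudogene), Mmp1b and Timp4 had none. Mmp20 and Adamts18 had a count in 1 liver, Adamts19 in 2 and Adamts20 in 3, with at most 1 in each. Mmp21 had counts in 5 livers, Mmp16 in 8 and Adamts8 in 9, with at most 2, 2 and 3. Mmp10 had them in 4 and Mmp24 in 13 livers, with at most 4 and 8. Mmp28 had counts in 25 livers, with at most 12, and averaged 0.164 ± 0.0915 CPM in vehicle and 0.288 ± 0.190 CPM at 30 µg/kg. A fit with no low-count filter called Mmp24 at 30 µg/kg, and Mmp10, Mmp24 and Adamts20 in the trend.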

How the data were processed

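RNA of 27 mouse livers was extracted with TRIzol and made into libraries with a TruSeq kit from Illumina, as the labels' protocols state. The authors deposited raw, unnormalized read counts for each gene. Per the submitters' processing notes the tools named are FastQC 0.11.2, cutadapt 1.4.1, TopHat 1.4.1, SAMtools 0.1.19, HTSeq 0.6.1 and DESeq, with GRCm38. Neither strand setting nor annotation release is given in the sources used here. The 5 summary lines entered neither the library sizes nor the tests (unassigned reads were 5.62% to 11.9% outside features and 1.79% to 3.49% ambiguous). Symbols and coordinates were found for 40340 identifiers.

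Counts were tested with edgeR 4.0.16 in R 4.3.3 (filterByExpr with a minimum count of 10, TMM scaling, quasi-likelihood test, all 27 livers, Benjamini-Hochberg adjustment) against vehicle, over dose rank and for 10 against 0.3 µg/kg. DESeq2 1.42.0, RLE scaling, no filter, smaller fits, a replicate block and leaving out single libraries were the alternatives. On simulated data for 30 µg/kg against vehicle (14833 genes) the share of true changes recovered was 12.1% at 1.5-fold, 60.6% at 2-fold and 87.7% at 4-fold, and 1.87% of calls were false. Only 200 genes were changed there, while 5660 were called in the data at this dose, so that these rates need not hold for the data. The labels do not tell of separate cultures or litters beyond naming biological replicates, and replicates of a group differed by more than sampling noise.

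Members and lists were chosen with earlier results of these data known. All Timp genes and every Mmp or Adamts gene called at a dose or in the trend are named, up to 12 with every liver's value by size of change at 30 µg/kg. Uncalled genes are given by group mean and untested ones by their counts. Each pathway list names up to 3 called genes with the largest change and the uncalled gene with the highest level. One gene that this rule names is not reported here.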

Additional observations from a re-analysis of the deposited data

How the results depend on the processing

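Counts of members called by edgeR kept within 1.5 times of the reported ones under RLE scaling, no filter, DESeq2 and the replicate block. With fewer livers fitted, the counts past that limit were the 12 at 1 µg/kg, which became 3 with the 6 libraries alone and 2 with the second 1 µg/kg liver alone, and the 23 of the trend, which became 5 in the second index set alone. The share of all genes called fell as well, from 19.4% to 11.3% with the 6 libraries alone at 1 µg/kg. In the trend it fell from 46.6% to 6.79% in the second index set alone. Leaving out 1 library went past the limit of 1.5 times at 1 and 10 µg/kg and for 10 against 0.3 µg/kg. It gave 0 to 0 members at 0.01 to 0.3 µg/kg, 7 to 11 at 1, 4 to 6 at 3, 8 to 12 at 10 and 16 to 21 at 30 µg/kg, 22 to 23 in the trend and 5 to 9 for 10 against 0.3 µg/kg. The share of all genes called was then 0% to 1.54% at 0.01 to 0.3 µg/kg, 11.2% to 19.3% at 1 and 5.92% to 7.91% at 3 µg/kg. It was 14% to 18.2% at 10 and 27.1% to 38.1% at 30 µg/kg. In the trend it was 40.9% to 47.3%, and for 10 against 0.3 µg/kg 6.88% to 11.1%. The log2 difference of the Timp to Mmp ratio, 0.42, ranged from 0.18 to 0.71 with 1 library left out. It was 3.67 with Timp1 alone and reversed to -0.27 with Mmp19 not counted. In the second index set alone the trend slopes of Mmp11 (0.03), Mmp27 (-0.24), Mmp8 (-0.06) and Mmp9 (-0.44) reversed, and the cause was not tested. Of 987 values of called members with 1 library left out, 899 stayed called, 88 did not and 0 reversed. Livers with the same replicate number did not vary together (r from -0.335 to 0.337 over 108 pairs, 20 above 0.1), so the numbers were not taken as pairs. With the replicate block 11 members were called at 1, 5 at 3, 14 at 10 and 21 at 30 µg/kg, 23 in the trend and 9 for 10 against 0.3 µg/kg. Beside these stood 19.2%, 9.95%, 22.5% and 37.3% of all genes at the 4 doses, 46.2% in the trend and 13.4% for 10 against 0.3 µg/kg. The second 1 µg/kg liver alone and the ratio without Mmp19 were chosen after seeing the data. Depth limits the genes with few counts and the second 0.3 µg/kg library (434011 counts).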
